A study of Mus musculus with 9 samples.

Results

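The spliceosome, SR and hnRNP genes are the factors that carry out and steer the splicing of pre-mRNA. They were taken here as the rows of the deposited count table whose symbol begins with Srsf and a number, Snrp, Prpf, Sf3a or Sf3b, Lsm and a number, U2af, or Hnrnp, with pseudogene names holding -ps left out. The rule found 82 of 47480 rows, and each of the 82 was among the 16426 genes with counts high enough to test. There were 11 Srsf, 13 Snrp, 13 Prpf, 9 Sf3, 13 Lsm, 3 U2af and 20 Hnrnp genes. In the GENCODE M21 annotation of GRCm38 81 of them are protein-coding genes, and the other, Snrpert, is a processed pseudogene, so that its reads may be shared with a parent gene. RNA was sequenced from 2 populations of primary hematopoietic cells of C57BL/6 mice, with no genetic change named in the labels. MP cells are labelled as progenitors, which is all the labels say of them, and LSK cells, a name used for lineage-negative marrow cells that carry Sca-1 and Kit, are labelled as stem cells. From each population came polysomal RNA, the RNA of fraction 7 of 10 from a sucrose gradient, which sediments with several ribosomes, and total RNA set aside from the lysate before that gradient. The groups were MP polysomal RNA (3 libraries), MP total RNA (2), LSK polysomal RNA (2) and LSK total RNA (2), and cells of all 4 had been held in 100 ug/ml cycloheximide, which stalls ribosomes on messages, for 10 min.

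Introns are removed by the spliceosome, a machine rebuilt on each intron from small nuclear ribonucleoproteins (snRNPs). U1 marks the 5′ splice site, the U2AF dimer and the SF3A and SF3B complexes place U2 at the branch point, and the U4/U6.U5 tri-snRNP, which holds many of the PRPF proteins, brings in the catalytic core. Sm and LSM proteins form rings around the snRNAs, SR proteins help splice sites to be chosen, and hnRNPs bind pre-mRNA and often oppose them. Many SR and hnRNP genes are known to regulate their own splicing through poison exons and retained introns, whose transcripts stay in the nucleus or decay. SF3B1, SRSF2 and U2AF1 are the splicing factors known best from mutations in human myeloid disease.

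Libraries of the same group differed before any comparison was made. Total counts lay between 27342343 and 34807735 per library, and the members took 1.62% to 2.32% of them. Ly6a, which encodes the Sca-1 antigen of the LSK sort, was at 0.159 to 1.26 CPM (reads of a gene scaled to library size, with TMM scaling of library sizes) in MP libraries and at 50.2 to 109.6 CPM in LSK libraries. Summed markers of maturing neutrophils ran from 511 to 17714 CPM over MP polysomal, 1003 to 14265 over MP total, 1377 to 2403 over LSK polysomal and 440 to 677 over LSK total libraries, with none of the 8 markers at 0 throughout. Those of B and plasma cells (7 genes) ran from 155 to 356 CPM over MP polysomal and 164 to 322 over MP total libraries. Over LSK polysomal libraries they ran from 897 to 3365 CPM, and over LSK total libraries from 621 to 4792. The part of these cells in the results below was not tested. Whether libraries stem from separate animals is not stated, so the p-values rest on a spread between libraries that may be only technical.

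Among the members this spread had a repeated form. Srsf2, an SR protein gene, had 53.2, 46.6 and 849 CPM in MP polysomal libraries 1, 2 and 3 and 51.2 and 835 CPM in MP total 1 and 2. It had 56.1 and 1075 CPM in LSK polysomal 1 and 2, and 33.7 and 641 CPM in LSK total 1 and 2. A single library of each group was far above the rest, and the groups overlapped in every comparison of Srsf2 below. Likewise Hnrnpab had 94.3, 84.2 and 1537 CPM in MP polysomal, 62.0 and 1249 in MP total, 112 and 543 in LSK polysomal and 17.6 and 505 in LSK total libraries. In all, 8 of 82 members (9.76%) were at least 2-fold higher in MP polysomal 3, MP total 2, LSK polysomal 2 and LSK total 2 than in the other libraries of those groups. These members, picked out after their values were seen, were Srsf2, Srsf4, Srsf6, Srsf9, Hnrnpab, Hnrnpl, Lsm2 and Lsm11, against 6.24% of all tested genes with that pattern, and 0 members had the opposite one, against 0.116%. Libraries of 1 group differed 4-fold or more for 12 members in MP polysomal, 8 in MP total, 17 in LSK polysomal and 17 in LSK total RNA, which is 14.6%, 9.76%, 20.7% and 20.7% of members, against 16.4%, 9.57%, 23.3% and 16% of all tested genes.

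**Figure D1:**
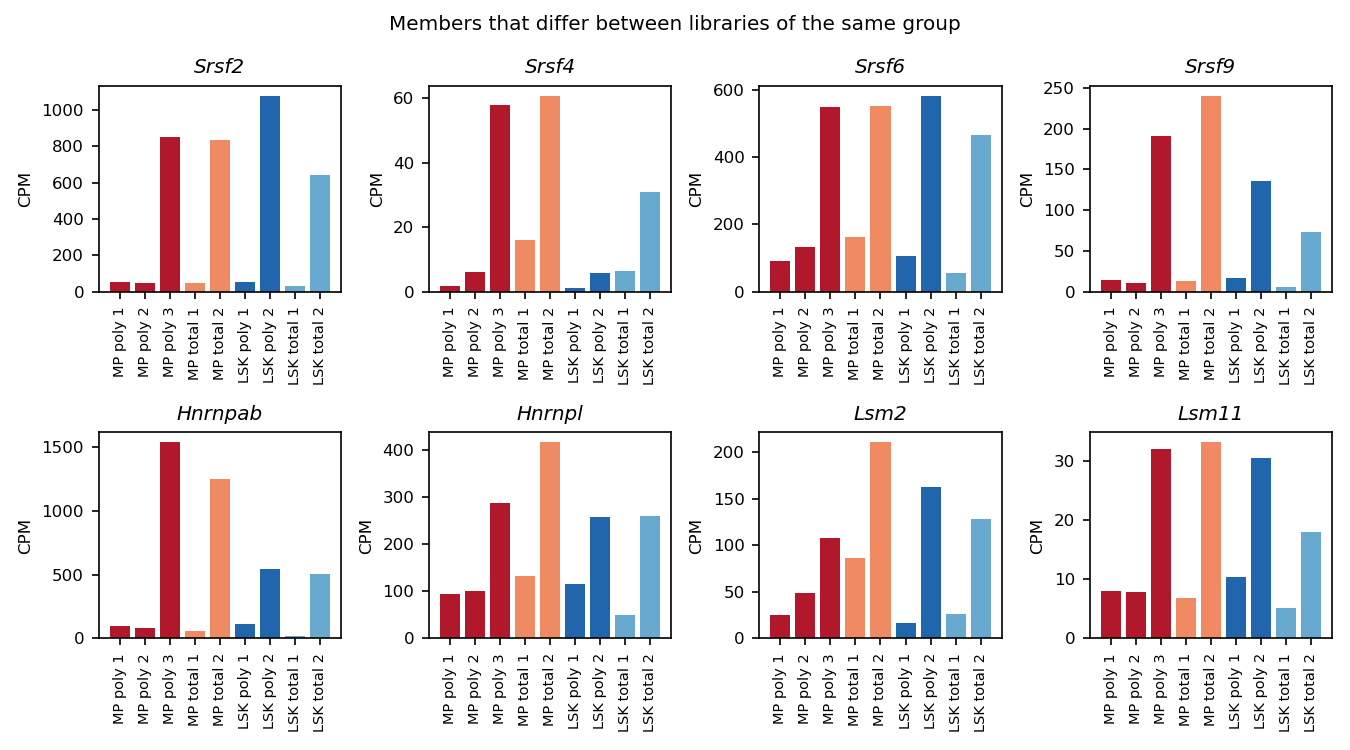
CPM (vertical axes, from 0) of the 8 members in each of the 9 libraries, MP polysomal and MP total left of LSK polysomal and LSK total. MP polysomal 3, MP total 2, LSK polysomal 2 and LSK total 2 are the high bars of their groups, as for Srsf2 at 849, 835, 1075 and 641 CPM.

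These are abundant transcripts. The median member had 138 CPM as a mean over the 9 libraries, against 15.4 CPM for the median tested gene. Per kilobase of exon, Snrpb, which encodes an Sm core protein, was the highest member at 356 ± 132 CPM per kb (SD over 9 libraries, n = 9). The highest of each other family follow, and members ranked between them, such as Hnrnpa2b1 at 244 ± 109 CPM per kb, are left out. Hnrnpk, a poly(C)-binding hnRNP, stood at 263 ± 106, the SR gene Srsf7 at 234 ± 47.4, and the U2 protein gene Sf3b2 at 111 ± 45.1 CPM per kb. The libraries of Snrpb and these 3 ran from 206 to 665, 134 to 431, 167 to 299 and 44.2 to 202 CPM per kb. Neighbours in this list of the highest of each family thus overlapped. Lsm4 of the U6 ring averaged 103 ± 80.3, Prpf8, the U5 scaffold protein, 73.4 ± 47.8, and U2af1, which reads the AG of the 3′ splice site, 59.8 ± 31.5 CPM per kb. At the low end, Srsf12 averaged 0.0589 and Snrpn 0.374 CPM per kb. In raw CPM, not corrected for length, the highest of each family were Hnrnpk (1702), Sf3b1 (1096), Srsf3 (876), Snrpb (703), Prpf8 (548), U2af1 (155) and Lsm6 (148).

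**Figure D2:**
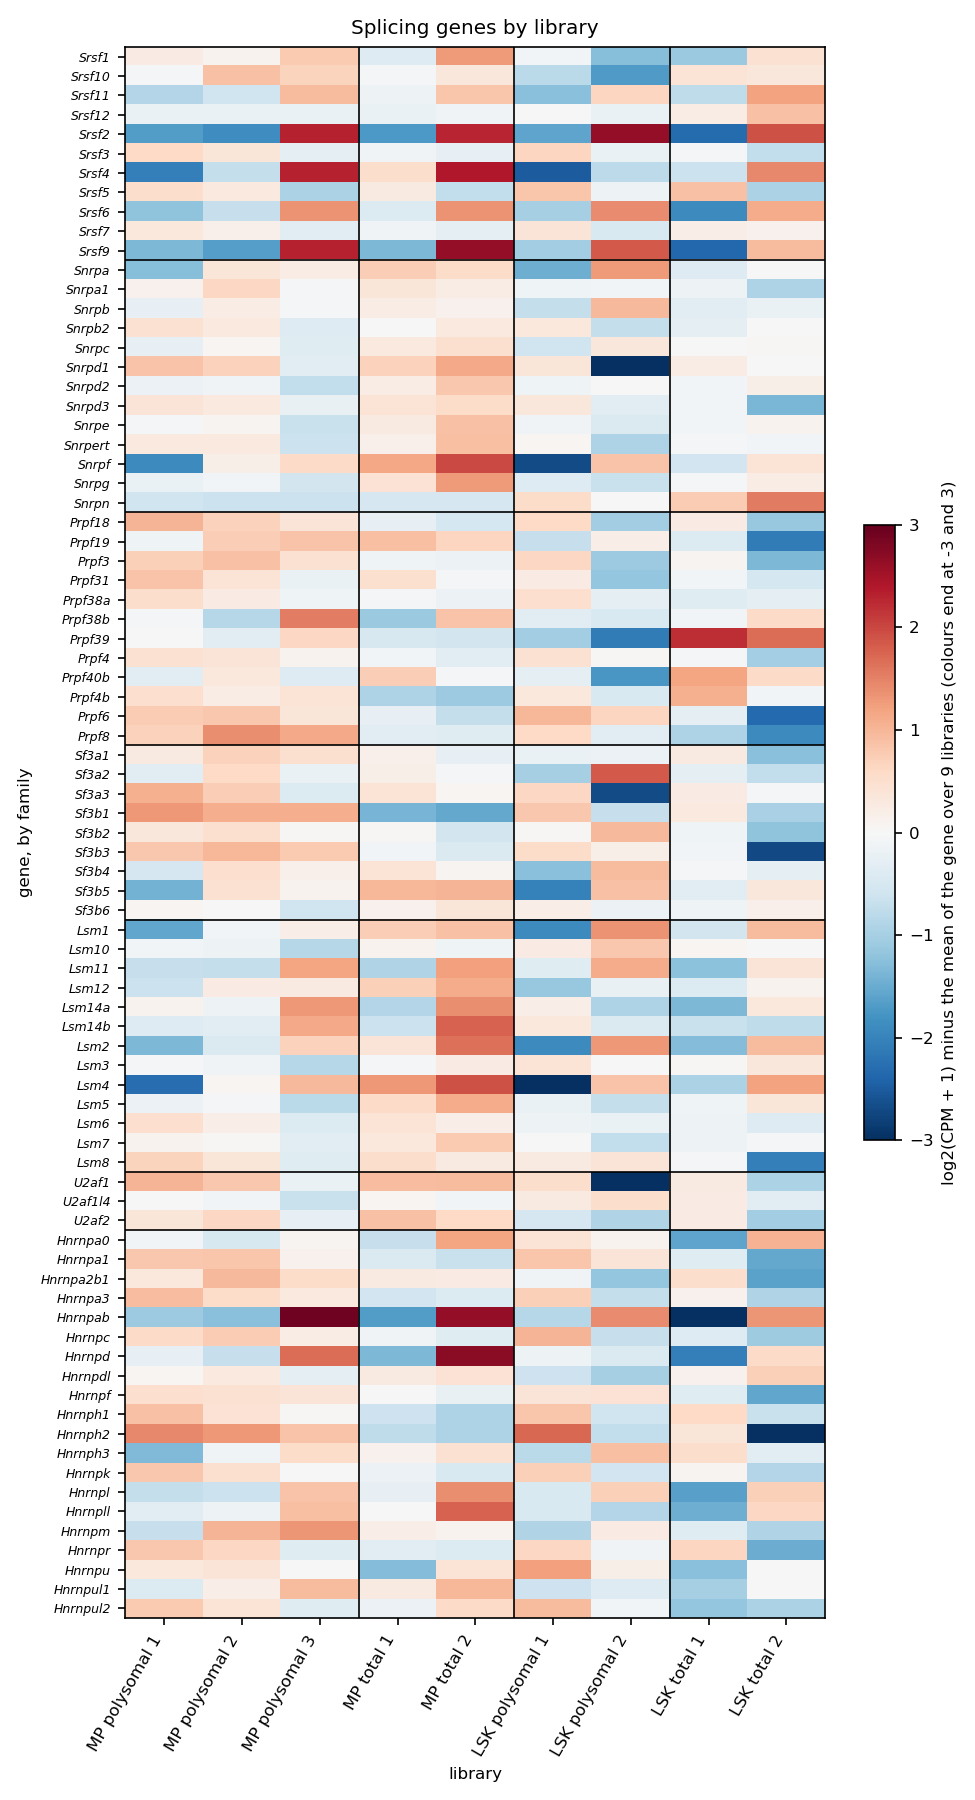
Each row is 1 of 81 members, grouped by family, and each column a library, with MP polysomal and MP total left of LSK polysomal and LSK total. Colour is log2(CPM + 1) minus the mean of that gene over the 9 libraries; Prpf39 is deep red in the LSK total columns (116.7 and 79.8 CPM), and Srsf2 and Hnrnpab are red in 1 column of each group.

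Promoter sequences are shown for the members on which the comparisons below turn. They are windows of 300 bases, from 250 before to 50 after the annotated start, from RefSeq on GRCm38.p6, 5′ to 3′ on the strand of the gene. Capitals mark 6 motifs searched on both strands: the CCAAT box, the TATA box TATAAA, the GC box GGGCGG, the ETS-type core CCGGAA, the NRF1-type core GCATGCGC and the YY1-type core ATGGCG. No 2 of the matches shown overlap.
Prpf39 chr12:65036084-65036383 plus strand: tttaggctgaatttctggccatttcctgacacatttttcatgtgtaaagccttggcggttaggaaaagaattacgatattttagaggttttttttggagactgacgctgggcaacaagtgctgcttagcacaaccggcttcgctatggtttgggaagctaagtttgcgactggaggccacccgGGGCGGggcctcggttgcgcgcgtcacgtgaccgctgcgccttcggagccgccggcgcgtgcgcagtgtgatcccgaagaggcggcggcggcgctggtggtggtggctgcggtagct
Srsf10 chr4:135855821-135856120 plus strand: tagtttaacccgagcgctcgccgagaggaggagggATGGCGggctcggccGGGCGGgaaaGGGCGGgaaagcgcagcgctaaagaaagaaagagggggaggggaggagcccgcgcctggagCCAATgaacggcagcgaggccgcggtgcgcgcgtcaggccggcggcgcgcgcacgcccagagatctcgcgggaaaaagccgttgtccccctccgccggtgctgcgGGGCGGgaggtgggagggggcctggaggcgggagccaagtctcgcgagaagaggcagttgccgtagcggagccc
Prpf4b chr13:34875279-34875578 plus strand: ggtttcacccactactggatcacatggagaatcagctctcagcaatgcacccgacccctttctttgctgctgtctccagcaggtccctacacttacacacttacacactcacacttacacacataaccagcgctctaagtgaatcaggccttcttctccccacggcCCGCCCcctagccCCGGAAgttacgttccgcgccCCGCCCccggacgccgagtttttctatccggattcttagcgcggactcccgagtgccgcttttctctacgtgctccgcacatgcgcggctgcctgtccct
Sf3b1 chr1:55027429-55027728 minus strand: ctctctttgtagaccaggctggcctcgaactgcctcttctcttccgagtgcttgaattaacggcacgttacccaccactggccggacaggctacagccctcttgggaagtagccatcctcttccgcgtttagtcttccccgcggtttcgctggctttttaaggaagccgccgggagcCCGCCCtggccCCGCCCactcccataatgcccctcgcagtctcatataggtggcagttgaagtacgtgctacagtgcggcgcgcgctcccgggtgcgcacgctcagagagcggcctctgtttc
Snrpn chr7:60005150-60005449 minus strand: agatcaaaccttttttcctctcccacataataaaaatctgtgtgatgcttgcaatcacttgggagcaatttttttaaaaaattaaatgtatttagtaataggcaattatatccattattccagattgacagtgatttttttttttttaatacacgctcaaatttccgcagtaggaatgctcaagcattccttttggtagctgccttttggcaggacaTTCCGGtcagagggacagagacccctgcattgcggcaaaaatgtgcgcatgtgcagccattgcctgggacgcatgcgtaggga
The Prpf39 and Sf3b1 windows held the GC box GGGCGG (1 and 2 copies) and none of the other 5 motifs. Srsf10 held 3 GC boxes, a CCAAT and an ATGGCG, and Prpf4b held 2 GC boxes and a CCGGAA. Snrpn, which has 4 annotated windows, held 1 CCGGAA in the one shown. RefSeq gave windows for 69 of the 82 members (92 windows). CCGGAA was in 41.3% of the member windows, 25.7% of the windows of tested genes and 14.9% of all 32851 windows, and ATGGCG in 29.3%, 14.2% and 8.93%. GGGCGG was in 67.4%, 59.4% and 35.7%, CCAAT in 46.7%, 37.4% and 37.4%, GCATGCGC in 7.61%, 4.96% and 2.71%, and TATAAA in 7.61%, 7.56% and 13.6%. A start of a C followed by 4 pyrimidines, as in the TOP messages of ribosomal proteins, was found in 2.17% of member windows (Hnrnpa0 and Srsf5), 2.51% of all windows and 16.3% of the 86 windows of ribosomal protein genes. These are matches of letters, and binding was not measured.

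MP and LSK cells were first compared in total RNA, which asks how the abundance of these transcripts differs between the 2 populations. Most members had somewhat higher values in MP cells, and Prpf39, Sf3b1, Prpf4b, Snrpn and Srsf12 were among those with lower ones. At an adjusted p under 0.05 over all genes (edgeR), 0 of 82 members were higher and 0 lower in MP, against 0.274% and 0.816% of all tested genes. Over all genes this was 45 higher and 134 lower, and 43 and 285 with library totals alone. Leaving out 1 total library of either population or 1 MP polysomal library took both counts to 0, and without LSK polysomal 1 or 2 they were 87 and 313 or 110 and 336. At an unadjusted p under 0.05 there were 1 higher and 5 lower (background 4.52% and 12.5%), and DESeq2 called 0 higher and 2 lower, Prpf39 and Snrpn (2.3% and 6.66%). In bulk RNA a lower share of cells of a type and less RNA per cell cannot be told apart.

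The direction of the smaller differences was shared widely. The median log2 change of the members was 0.45, against −0.01 for all tested genes, with 62 of 82 members positive (75.6%, against 49.8% of all genes). MP and LSK libraries did not overlap for 33 members with MP higher and for 7 with MP lower (background 22.8% and 28.5%). Snrp genes had a median of 0.75 (12 of 13 positive), Lsm genes 0.78 (11 of 13), U2af genes 1.00 (3 of 3), Hnrnp genes 0.37 (15 of 20), Sf3 genes 0.36 (8 of 9), Prpf genes 0.20 (7 of 13) and Srsf genes 0.16 (6 of 11). Without MP total 2 the median over members was 0.20 and that of all genes −0.26, and scaling by library totals alone gave 0.11 and −0.36. Over all 18 alternatives the Snrp, Lsm and U2af medians kept their sign. The Srsf, Prpf, Sf3 and Hnrnp medians turned in 1 to 3 of them, to −0.43, −0.18, −0.04 and −0.10 at the lowest.

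Prpf39, which encodes a U1 snRNP protein that helps choose 5′ splice sites (chr12:65036333-65063386, plus strand, GRCm38), had 17.3 and 16.5 CPM in MP total libraries and 117 and 79.8 CPM in LSK total libraries. The groups did not overlap, and every LSK value was over 4 times every MP value (log2 change −2.54, SE 0.641, unadjusted p = 0.0029, adjusted p = 0.0895; DESeq2 adjusted p = 0.00173). Prpf4b, whose kinase acts on proteins of the tri-snRNP, had 38.3 and 34.0 CPM in MP and 157 and 70.4 CPM in LSK (log2 change −1.65, SE 0.555, adjusted p = 0.17). Here too the groups did not overlap, although the LSK pair spread over 2-fold.

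Snrpn encodes SmN, a relative of the Sm core protein SmB that is known chiefly from brain and is imprinted. It had 3 and 3 counts in MP total and 56 and 143 counts in LSK total libraries, and its LSK to MP ratio was 27.1 (95% counting interval 12.2 to 74.8). The fitted difference was −4.67 (SE 1.05, adjusted p = 0.0663). It passed when LSK polysomal 1 or 2 was left out of the shared fit, and when a GC trend was removed (adjusted p = 0.0445). Srsf12, an SR gene with little expression here, had 0 and 2 counts in MP total and 12 and 45 in LSK total libraries, a ratio of 23.3 in favour of LSK (6.16 to 197), with an adjusted p of 0.248. Intervals on counts cover counting error only. Snrpn and Srsf12 had counts high enough for testing in LSK libraries alone, so their entry to the test favoured a lower value in MP. Exons of Snrpn overlap those of Snurf on the same strand, so the strand cannot tell their reads apart there. Snurf had 0 counts in each of the 9 libraries. Exons of Prpf39 overlap Fkbp3 on the other strand, and reads of that pair cannot be told apart where the strand setting is not given.

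On the other side was Prpf19, the ubiquitin ligase subunit of the complex that activates the spliceosome. It had 416 and 343 CPM in MP total and 165 and 51.0 CPM in LSK total libraries (log2 change 1.81, SE 0.655, unadjusted p = 0.0207, adjusted p = 0.194). Next by p among the higher members were Hnrnpul2 (log2 change 1.37), the P-body gene Lsm14b (2.01), the Sm core gene Snrpd3 (1.08), Prpf8 (0.98) and Lsm12 (1.08), with adjusted p from 0.31 to 0.398. In each of these 5 the MP libraries lay above the LSK libraries. Lsm14b had 3.40 and 22.3 CPM in MP total and 3.30 and 3.07 CPM in LSK total libraries, and without MP total 2 its log2 change was 0.10. U2af1 had 227 and 231 CPM in MP total and 144 and 61.3 CPM in LSK total libraries (log2 change 1.16, SE 1, adjusted p = 0.622).

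In polysomal RNA MP and LSK cells were compared in what gradient fraction 7 held. Here Snrpn was the 1 member that passed, lower in MP. Its counts were high enough for testing in LSK libraries alone, so its entry to the test favoured that direction. Prpf39 and the SR gene Srsf10 had higher values in MP, the reverse of the order of Prpf39 in total RNA. By edgeR 0 members were higher and 1 lower (background 0.524% and 2.83%), at an unadjusted p under 0.05 2 were higher and 1 lower (6.09% and 11.7%), and by DESeq2 2 were higher and 1 lower (3.22% and 6.67%). Libraries did not overlap for 12 members with MP higher and 5 with MP lower (15% and 17.4%), and the median over members was 0.15 against −0.03 over all genes.

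Snrpn had 1, 0 and 0 counts in MP polysomal libraries and 39 and 13 counts in LSK polysomal libraries. The LSK to MP ratio of its summed, depth-scaled counts was 87.2 (95% counting interval 15.0 to 3511), and the fitted log2 change was −5.94 (SE 1.08, adjusted p = 0.0227, edgeR). The call was lost when MP polysomal 1, 2 or 3 or LSK polysomal 1 was left out, without both MP libraries numbered 1, and when the fit held the polysomal libraries alone. Its level was low throughout, at most 3.57 CPM in any library.

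Srsf10, whose protein represses splicing when it loses its phosphates, had 149, 284 and 247 CPM in MP polysomal and 87.3 and 47.2 CPM in LSK polysomal libraries. The lowest MP value was above the highest LSK value (log2 change 1.75, SE 0.5, unadjusted p = 0.00612, adjusted p = 0.0947; DESeq2 adjusted p = 0.012). Prpf39 had 24.6, 19.1 and 38.1 CPM in MP polysomal and 11.4 and 4.94 CPM in LSK polysomal libraries, also without overlap (log2 change 1.74, SE 0.59, unadjusted p = 0.0152, adjusted p = 0.152; DESeq2 adjusted p = 0.0291). Sf3b1, the SF3B subunit that holds the branch point (chr1:54985169-55027481, minus strand), had 2115, 1802 and 1818 CPM in MP and 1502 and 529 CPM in LSK polysomal libraries (log2 change 0.91, SE 0.55, adjusted p = 0.439). Its MP libraries stood above both LSK libraries, but without LSK polysomal 2 the log2 change was 0.35.

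Other members lay farther from a call. Hnrnpdl (0.85), U2af2 of the U2AF dimer (1.00), Hnrnpa2b1 (1.17) and Prpf8 (0.90) had positive log2 changes without overlap, with adjusted p from 0.357 to 0.386. Lsm10, a subunit of the U7 particle that trims histone messages, had 34.2, 32.4 and 19.5 CPM in MP and 42.9 and 64.7 CPM in LSK polysomal libraries (log2 change −0.91, SE 0.479, adjusted p = 0.372). U2af1l4 (−0.62) and the U6 ring gene Lsm3 (−0.53) were also lower in MP without overlap, and Sf3a2 (−0.95) with overlap, and its sign turned without LSK polysomal 2 (1.11). Srsf12 had 0 counts in each MP polysomal library and 4 and 0 counts in LSK polysomal libraries, too few for a fold. By family the Prpf genes had the median farthest from that of all genes, apart from the 3 U2af genes, at 0.73 with 12 of 13 positive (0.16 without both LSK libraries numbered 2).

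**Figure D3:**
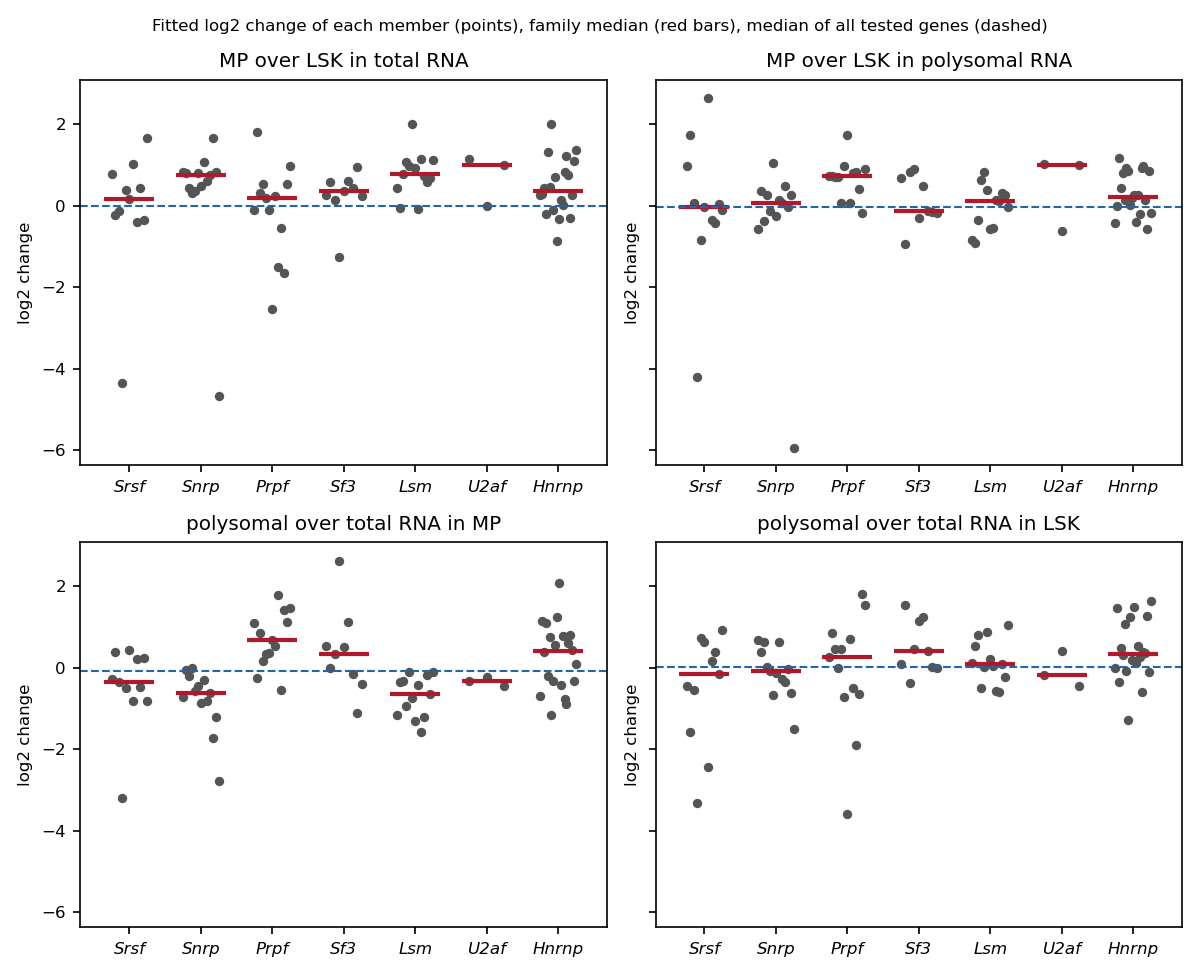
Fitted log2 change of each member (points) by family in MP over LSK (upper panels, total and polysomal RNA) and in polysomal over total RNA (lower panels, MP left and LSK right), with family medians as red bars and the median of all tested genes as a dashed line. In the lower left panel the 13 Snrp and 13 Lsm genes lie below 0, with medians of −0.62 and −0.64, and 11 of 13 Prpf genes lie above it, with a median of 0.69.

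Within MP cells, polysomal RNA was compared with total RNA to ask which messages were over- or under-represented in gradient fraction 7. No library covers polysomes of other fractions, so a lower value does not show that a message was scarcer on polysomes. The families lay apart. Snrp and Lsm genes, most of which have short coding sequences, had lower values in polysomal RNA. Most PRPF and hnRNP genes had higher ones, with Sf3b1 the highest of the members. By edgeR 0 of 82 members passed in either direction, as did 0 of 16426 genes (0% background). At an unadjusted p under 0.05 5 members were higher and 3 lower (4% and 3.57%), and DESeq2 called 1 higher, Sf3b1, and 0 lower (0.183% and 0%).

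Sf3b1 had 2115, 1802 and 1818 CPM in MP polysomal libraries and 323 and 293 CPM in MP total libraries. Its lowest polysomal value was over 5 times its highest total value (log2 change 2.63, SE 0.596, unadjusted p = 0.00144, adjusted p = 0.656; DESeq2 adjusted p = 0.026). The log2 change stayed between 2.57 and 2.71 whichever library was left out, and was 2.19 with the GC trend removed. Prpf8 had 719, 1173 and 972 CPM in MP polysomal and 348 and 343 CPM in MP total libraries (log2 change 1.47, SE 0.499, unadjusted p = 0.0155, adjusted p = 0.656). Prpf4b had 106, 87.2 and 99.3 CPM in MP polysomal and 38.3 and 34.0 CPM in MP total libraries (log2 change 1.43, SE 0.519, unadjusted p = 0.0208, adjusted p = 0.656). In all 3 of these genes the polysomal libraries lay wholly above the total ones. Hnrnpa1, a repressor of exon inclusion, (1.16) and Hnrnph1, which binds runs of G, (1.26) followed without overlap, with adjusted p of 0.656 and 0.666. The longest annotated coding sequence had 3912 bases in Sf3b1, 7005 in Prpf8 and 3021 in Prpf4b. It had 1119 bases in Hnrnpa1 and 1416 in Hnrnph1, against a median of 1380 over tested genes. The part of length in these values was not tested.

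On the lower side the Sm core gene Snrpg had 62.7, 68.4 and 48.8 CPM in MP polysomal and 97.7 and 176 CPM in MP total libraries (log2 change −1.19, SE 0.447, unadjusted p = 0.0245, adjusted p = 0.656). Lsm5 of the U6 ring had 24.0, 26.2 and 15.0 CPM in MP polysomal and 40.6 and 60.2 CPM in MP total libraries (log2 change −1.21, SE 0.502, unadjusted p = 0.0374, adjusted p = 0.656). Snrpd2 (−0.87), Snrpe (−0.80) and Lsm12 (−0.93) had the next smallest p, and Snrpn, with its 1 count in MP polysomal and 6 in MP total libraries, had −2.77. Libraries did not overlap for 19 members with polysomal RNA higher and 16 with it lower (background 16.3% and 16.4%). The 16 were 8 Snrp, 6 Lsm and 2 Sf3 genes (Sf3b5 and Sf3b6), and the 19 were 8 Prpf, 8 Hnrnp and 3 Sf3 genes.

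Family medians were −0.62 for Snrp (0 of 13 positive), −0.64 for Lsm (0 of 13), −0.31 for U2af (0 of 3), −0.35 for Srsf (4 of 11), 0.35 for Sf3 (6 of 9), 0.42 for Hnrnp (12 of 20) and 0.69 for Prpf (11 of 13), against −0.08 over all genes. The Snrp, Lsm, Prpf, Sf3, Hnrnp and U2af medians kept their sign under each of the 18 alternatives, with ranges of −0.89 to −0.45, −1.05 to −0.36, 0.39 to 0.86, 0.20 to 0.59, 0.07 to 0.62 and −0.47 to −0.03. The Srsf median turned to 0.47 without MP total 2. The median over all members, −0.21, turned to 0.25 without that library. Coding length moved with these values. The longest annotated coding sequence had a median of 462 bases in the Snrp and 393 in the Lsm family, against 1995 in the Prpf, 1503 in the Sf3 and 1304 in the Hnrnp family and 1380 over tested genes. Across 81 members with a coding sequence, the log2 change and coding length had a Spearman correlation of 0.59, and 0.51 across 8663 tested genes with at least 10 CPM. All points come from the same 5 libraries, genes are not independent replicates, and the part of length in the family difference was not tested.

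Within LSK cells the 2 fractions were compared in the same way. Prpf39 had the lowest polysomal value relative to total RNA of any member, and Prpf8 and Hnrnpa1 were again among the higher ones. By edgeR 0 members and 0 genes passed (0% background). At an unadjusted p under 0.05 5 members were higher and 4 lower (3.56% and 8.5%), and DESeq2 called 0 higher and 1 lower, Prpf39 (0.225% and 2.41%). Libraries did not overlap for 14 members with polysomal RNA higher and 11 with it lower (16.2% and 20.6%).

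Prpf39 had 11.4 and 4.94 CPM in LSK polysomal and 117 and 79.8 CPM in LSK total libraries, far apart between the groups (log2 change −3.59, SE 0.671, unadjusted p = 0.000374, adjusted p = 0.212; DESeq2 adjusted p = 2.63e-05). The log2 change was between −4.44 and −3.10 with any 1 library left out, and −2.32 with the GC trend removed. Srsf10 had 87.3 and 47.2 CPM in LSK polysomal and 205 and 194 CPM in LSK total libraries (log2 change −1.57, SE 0.526, unadjusted p = 0.0144, adjusted p = 0.28). Hnrnpdl, a relative of hnRNP D, had 74.5 and 57.4 CPM in LSK polysomal and 127 and 189.9 CPM in LSK total libraries (log2 change −1.27, SE 0.475, unadjusted p = 0.0245, adjusted p = 0.327). The scarce gene Prpf40b had 9.63 and 2.82 CPM in LSK polysomal and 28.4 and 18.1 CPM in LSK total libraries (log2 change −1.90, SE 0.725, unadjusted p = 0.0265, adjusted p = 0.334). None of these 4 overlapped.

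Prpf8 had 669 and 356 CPM in LSK polysomal and 234 and 117 CPM in LSK total libraries (log2 change 1.55, SE 0.531, unadjusted p = 0.0162, adjusted p = 0.287). Hnrnpa1 had 575 and 425 CPM in LSK polysomal and 249.6 and 111 CPM in LSK total libraries (log2 change 1.47, SE 0.531, unadjusted p = 0.0205, adjusted p = 0.303). Prpf6, a bridge between U5 and U4/U6, (1.82), Hnrnpul2 (1.65), Hnrnpf, a G-run binder, (1.25) and Sf3b2 (1.16) were higher without overlap too, with adjusted p from 0.295 to 0.432. Sf3b1 had 1502 and 529 CPM in LSK polysomal and 1049 and 431 CPM in LSK total libraries, which overlapped (log2 change 0.46, SE 0.587, adjusted p = 0.796), and its log2 change was −0.63 without LSK polysomal 1. The median over members was 0.12 against 0.02 over all genes, and −0.15 without LSK polysomal 1. With library totals alone it was −0.29, with a median of −0.36 over all genes. By family the medians were 0.42 for Sf3 (8 of 9 positive), 0.35 for Hnrnp (14 of 20), 0.28 for Prpf (7 of 13), 0.09 for Lsm (9 of 13), −0.08 for Snrp (5 of 13), −0.14 for Srsf (5 of 11) and −0.18 for U2af (1 of 3), and each turned sign under at least 1 of the alternatives.

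**Figure D4:**
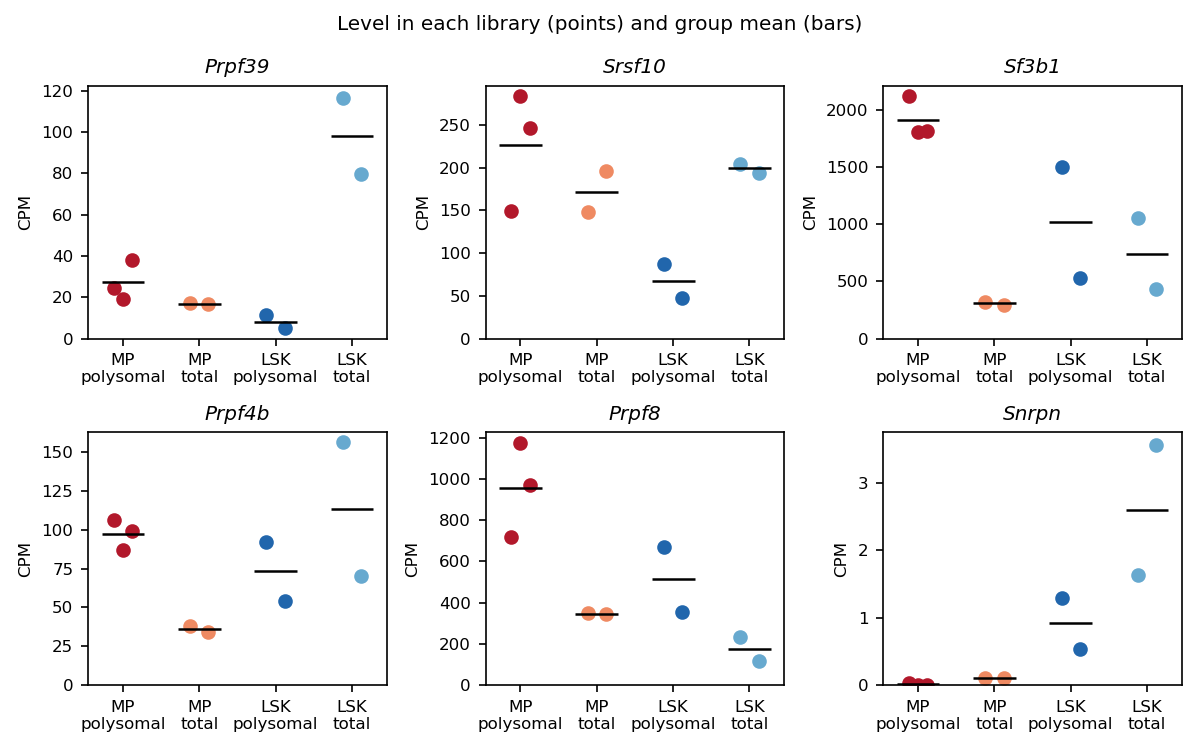
CPM (vertical axes, from 0) of 6 members in each library (points) with the group mean (bars), MP polysomal and MP total left of LSK polysomal and LSK total. Prpf39 is highest in LSK total (116.7 and 79.8 CPM) and lowest in LSK polysomal RNA (11.4 and 4.94 CPM), and Sf3b1 is highest in MP polysomal RNA (1802 to 2115 CPM).

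The last comparison took the polysomal-to-total change of MP minus that of LSK, which asks whether a message is distributed differently between fractions in the 2 populations. Prpf39 had the largest positive difference among the members, and most Lsm and Snrp genes had negative ones. By edgeR 0 of 82 members and 0 of all genes passed (0% background). At an unadjusted p under 0.05 5 members were higher in MP and 0 lower (4.74% and 0.554%). DESeq2 called 1 member higher and 0 lower, and that member, Prpf39, was the 1 gene of 16426 that it called (0.00609% and 0%).

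Over the 4 groups Prpf39 averaged 27.3 ± 9.80 CPM in MP polysomal (SD, n = 3), 16.9 ± 0.562 in MP total, 8.15 ± 4.54 in LSK polysomal and 98.2 ± 26.1 CPM in LSK total RNA (n = 2 each). In order, LSK total was highest, then MP polysomal, MP total and LSK polysomal, and the libraries of these neighbours did not overlap. Its polysomal-to-total log2 change was 0.69 in MP and −3.59 in LSK, a difference of 4.28 (SE 0.872, unadjusted p = 0.000695, adjusted p = 0.877, edgeR; DESeq2 4.31, SE 0.859, adjusted p = 0.00846). With any 1 library left out the difference was 3.80 to 5.19. Sf3b1 (2.18), Prpf4b (2.07) and Srsf10 (1.97) also had positive differences, with unadjusted p of 0.0236, 0.0207 and 0.0204, each with an adjusted p of 0.877. Of these and Prpf39, Sf3b1 and Prpf4b had their larger fitted fraction change in MP (2.63 and 1.43), and Prpf39 and Srsf10 in LSK (−3.59 and −1.57).

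**Figure D5:**
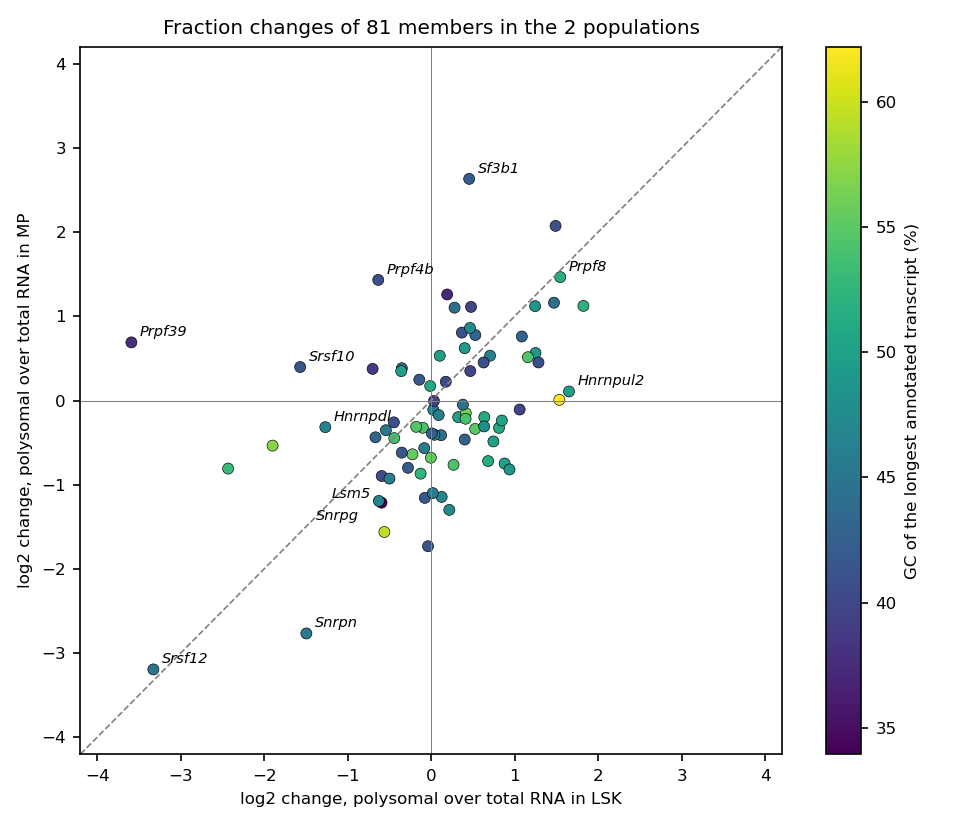
Fitted log2 change of polysomal over total RNA in MP (vertical axis) against that in LSK (horizontal axis) for 81 members, coloured by the GC content of the longest annotated transcript; the dashed line marks equal changes. Prpf39 (0.69 in MP, −3.59 in LSK) lies farthest from the line, and Sf3b1, Prpf4b and Srsf10 also lie above it.

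Lsm genes had a median difference of −0.87 (0 of 13 positive) and Snrp genes −0.57 (1 of 13), against −0.32 over members and −0.10 over all genes. Those of the other families were 0.40 for Prpf, 0.13 for Srsf, −0.13 for U2af, −0.31 for Hnrnp and −0.40 for Sf3. Under the alternatives the Lsm median ran from −0.94 to −0.31 and the Snrp median from −0.998 to −0.34, and each of the other 5 turned sign under at least 2 alternatives. Without MP total 2 the median over members was −0.06 while that over all genes was 0.18.

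GC content moved with these differences. Across 8807 tested genes with at least 10 CPM, the Spearman correlation of log2 change with the GC content of the longest transcript was 0.44 for MP over LSK in total RNA and −0.31 in polysomal RNA, −0.47 for polysomal over total RNA in MP and 0.45 in LSK, and −0.66 for the difference between populations. Across the 82 members it was 0.34, −0.17, −0.25, 0.19 and −0.36 for these comparisons. All points come from the same 9 libraries. The members had a median GC content of 46.0%, against 49.3% over tested genes, and Prpf39 (37.6%), Prpf4b (40.8%), Srsf10 (41.4%) and Sf3b1 (42.1%) all lay below it. After removal of a GC trend fitted in each library, an alternative chosen after seeing the data, the difference between populations was 2.71 for Prpf39, 1.27 for Sf3b1, 0.92 for Srsf10 and 0.82 for Prpf4b, and the lower level of Prpf39 in MP total RNA was −1.22. Malat1, a long nuclear RNA without a protein, was at 136 to 242 CPM in MP polysomal, 88.6 to 112 in MP total, 13.5 and 183 in LSK polysomal and 679 and 978 CPM in LSK total libraries, and like Prpf39 was highest in LSK total RNA. Neat1, another long nuclear RNA, was at 37.6 to 46.7 CPM in MP polysomal, 78.7 and 50.8 in MP total, 21.5 and 4.36 in LSK polysomal and 84.4 and 26.9 CPM in LSK total libraries, where the 2 total groups overlapped. The part of GC content, or of nuclear RNA in the total fraction, in the results for these genes was not tested.

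Splicing genes that the name rule leaves out were grouped in 3 further lists. Of 55 other spliceosome parts, 42 splicing regulators and 18 genes of snRNP assembly, 1 gene passed in 1 comparison. It was lower in MP in polysomal RNA, where 2.83% of all tested genes were called lower. Rbfox2, which encodes a regulator that binds GCATG, had 0.0342, 0.165 and 0.0956 CPM in MP polysomal and 1.83 and 4.24 CPM in LSK polysomal libraries (log2 change −4.88, SE 0.92, adjusted p = 0.0258). It too had counts high enough for testing in LSK libraries alone, which favoured that direction. The call was lost without MP polysomal 1, 2 or 3 or LSK polysomal 2 (adjusted p from 0.0967 to 0.12). Among the regulators 10 of 42 had an unadjusted p under 0.05 and a positive difference in the polysomal-to-total change of MP minus that of LSK, with 0 negative, against 4.74% and 0.554% of all tested genes, and the list's median was 0.88, against −0.10 over all genes. Clk1, a kinase that phosphorylates SR proteins, had 127, 65.8 and 78.9 CPM in MP polysomal, 62.1 and 38.5 in MP total, 104 and 29.7 in LSK polysomal and 347 and 295 CPM in LSK total libraries (difference 3.11, SE 0.904, adjusted p = 0.877). The U1-associated Luc7l3 had 74.5, 49.2 and 51.7 CPM in MP polysomal, 30.3 and 30.1 in MP total, 42.6 and 25.3 in LSK polysomal and 112 and 97.0 CPM in LSK total libraries (difference 2.57, SE 0.711, adjusted p = 0.877), and Rbm25 had a difference of 2.56. Like Prpf39, Clk1 and Luc7l3 were highest in LSK total RNA. The longest transcripts of Clk1, Luc7l3 and Rbm25 had a GC content of 39.2%, 41.6% and 37.5%, against a median of 49.3% over tested genes. For this difference the correlation with GC content was −0.66 across 8807 tested genes. The part of GC content in this list was not tested. Other spliceosome parts had a median difference of 0.08 (3 of 55 with p under 0.05 and positive, 0 negative), and snRNP assembly genes −0.25 (1 positive and 1 negative of 18).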

How the data were processed

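RNA sequencing of 9 libraries was analysed from the table of raw counts per gene symbol that the authors deposited. Per the submitters' processing notes, bcl2fastq, STAR, featureCounts and DESeq2 were used with mm10 and GRCm38. No source used here states tool versions, gene annotation or strandedness of counting, so reads of overlapping, antisense or near-identical genes may be split or merged (29 members overlap exons of another gene, 8 on the same strand and 24 on the opposite one). Per the labels' protocols, RNA was amplified with a SMARTer kit. The normalized table deposited beside the counts was not used. Among the symbols 27 have the form of dates, and these rows were kept as they are. The members and gene lists were chosen with earlier results of these data known.

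Genes were filtered with filterByExpr (minimum count 10, minimum total 15). After TMM scaling, a quasi-likelihood model holding the 4 groups was fitted to the 9 libraries in edgeR 4.0.16 (R 4.3.3). Tests were two-sided, with Benjamini-Hochberg adjustment over 16426 genes and a threshold of 0.05. DESeq2 1.42.0 was an alternative. The 5 comparisons share libraries. Total and polysomal libraries of a population may share lysates, which the labels do not match. CPM are counts scaled to the TMM-adjusted depth of the library, and CPM per kb divides by the exon union length of the gene in GENCODE M21. Length and GC content come from that annotation, and promoters from RefSeq. Named members were Prpf39 and Sf3b1, those that passed, up to 6 by smallest p in each direction of each comparison, the highest of each family, U2af1 and Srsf2. A member that meets this rule is not reported here by name. The procedure was tested on simulated data that varied less between libraries than these data do. That test therefore does not show how often true differences are found here.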

Additional observations from a re-analysis of the deposited data

Results flagged for a closer look

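Prpf39 is flagged because DESeq2, an alternative here, called its polysomal-to-total change different between the 2 populations in a test of the difference itself. The main test in edgeR did not call it. By DESeq2 the log2 difference, MP minus LSK, was 4.31 (SE 0.859, adjusted p = 0.00846), and by edgeR 4.28 (adjusted p = 0.877). Its CPM were 24.6, 19.1 and 38.1 in MP polysomal and 17.3 and 16.5 in MP total libraries, against 11.4 and 4.94 in LSK polysomal and 116.7 and 79.8 in LSK total libraries. The GC content of its longest transcript was 37.6%, and with the GC trend removed the edgeR difference was 2.71.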

How the results depend on the processing

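Of the alternative values of member counts and medians, 146 lay within 1.5 times the count or within 0.184 of the median (log2, the SD between libraries), and 32 lay outside. Without the filter on low counts 2 members passed in total RNA between populations (Prpf39, Snrpn), 2 in polysomal RNA (Snrpn, Srsf4), 1 between fractions in LSK (Prpf39) and 1 in MP (Sf3b1). Of the 31421 genes then tested, 325 were higher and 881 lower in total RNA, and 379 and 1179 in polysomal RNA. Between fractions they were 73 and 474 in LSK and 6 and 16 in MP. With DESeq2 the counts of members were 2, 3, 1 and 1, and 1 for the difference between populations. Over all tested genes DESeq2 called 2.3% higher and 6.66% lower in total RNA, and 3.22% and 6.67% in polysomal RNA. Between fractions it called 0.225% and 2.41% in LSK and 0.183% and 0% in MP, and for the difference 0.00609% and 0%. With the replicate block the counts of members were 1 (Prpf39) in total and 0 in polysomal RNA between populations, where the adjusted p of Snrpn was 0.0655. Over all 16426 genes that fit called 165 higher and 405 lower in total RNA, and 112 and 306 in polysomal RNA. MP polysomal 3, the 1 library numbered 3, had a block level of its own there, so its counts did not inform the comparisons. With the groups compared alone, and without both MP libraries numbered 1, 0 passed in polysomal RNA, and with the GC trend removed 1 (Snrpn) in total RNA. With 1 library left out the counts ranged from 0 to 1 in total RNA and 0 to 2 in polysomal RNA (Snrpd1 and U2af1 without LSK polysomal 1). Medians over members then ranged from 0.20 to 0.58 in total RNA, 0.11 to 0.53 in polysomal RNA, −0.15 to 0.17 between fractions in LSK, −0.21 to 0.25 in MP, and −0.49 to −0.065 for the difference. Library totals alone gave medians of 0.11 in total RNA, −0.29 between fractions in LSK and −0.13 for the difference. Removing the GC trend, a step chosen after seeing the data, gave 0.37 in LSK and −0.53 for the difference, which was −0.10 without both LSK libraries numbered 2.

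Signs of single members turned as follows. Without both LSK libraries numbered 2, polysomal RNA gave 1.11 for Sf3a2 and 2.50 for Srsf2, fractions in LSK 0.25 for U2af1, and the difference 0.73 for Sf3a2 and 0.051 for Prpf19. The GC trend gave 0.44 for Sf3a2 in polysomal RNA, and 0.57 for Sf3a2 and 0.24 for U2af1 in the difference, where the replicate block gave 0.48 for U2af1. With 1 library left out, Srsf2 ranged from −2.71 to 3.72 in total and −3.50 to 2.50 in polysomal RNA, −2.57 to 4.08 between fractions in LSK, −3.15 to 2.65 in MP, and −4.55 to 2.09 in the difference. Likewise polysomal RNA gave −5.13 to 0.00 for Srsf12 and −1.65 to 1.11 for Sf3a2, fractions in LSK −0.63 to 1.26 for Sf3b1 and −3.41 to 0.75 for U2af1, and the difference −1.05 to 3.12 for U2af1, −2.17 to 0.52 for Sf3a2 and −2.44 to 0.29 for Lsm14b. Of the values of single genes and families, 1889 kept their side of the threshold or stayed within the SD between libraries. Another 43 values were family medians that moved by more. Among values of single genes 16 passed newly, 13 no longer passed and 29 turned sign. Family medians that turned sign are not counted among these 29. Genes of the whole table called higher and lower in MP in total RNA numbered 45 and 134 of 16426 in the main fit. They numbered 377 and 1094 of 16426 with DESeq2, 325 and 881 of 31421 without the filter and 0 and 0 of 15761 with the groups compared alone. In polysomal RNA they numbered 529 and 1095 of 16426, 379 and 1179 of 31421, and 38 and 266 of 14392, against 86 and 465 of 16426. With the GC trend removed they were 88 and 300 of 16426 in total RNA. Causes were not tested. A group with 1 library left was assumed to vary like the others.

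The labels do not say that library numbers mark a shared animal or day, and the numbers were not taken as pairs, since not every same-numbered pair correlated above 0.1. Deviations of 12 such pairs correlated at −0.637 to 0.787, and 9 were over 0.1, among them those numbered 1 (0.301 to 0.787). The 3 others involve MP polysomal 2 (−0.0818, −0.529 and −0.637). Of 9 libraries 6 correlated best with their own number. In a group of 2 libraries the deviations mirror each other, so between such groups pairs numbered 2 repeat those numbered 1. The 12 pairs are thus not separate checks. MP polysomal 3 has no same-numbered library. It correlated at 0.658 with LSK polysomal 2, 0.706 with LSK total 2 and 0.744 with MP total 2. A split shared by the groups under other numbers was not tested. Snrpn and Srsf12 rest on few counts.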
